A study of Mus musculus with 9 samples.

Results

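Small leucine-rich proteoglycans (SLRPs) were followed in RNA-Seq data of mouse embryonic fibroblasts (MEFs). The genes were picked by symbol as members of the family, with earlier results of these data known: Bgn, Dcn, Aspn, Fmod, Lum, Prelp, Kera, Omd, Ogn and Podn. All 10 were among the 24341 genes with deposited values. The study asked how the DNA damage kinase ATM and the deacetylase SIRT6 act in ageing cells, and its RNA-Seq set held 9 samples, 3 each of wild-type (WT), Atm-/- and Sirt6-/- MEFs. All 9 were given as C57BL/6 MEFs grown in DMEM with 10% FBS and with no drug treatment. Each genotype was compared with the other 2.

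The groups have limits as models of a single gene loss. Mice lacking p53, or both Atm and p53, appear in the labels as sources of MEFs but are matched to no sample. The paper describes immortalized Atm-/-;p53-/- and Sirt6-/- MEFs as gifts, each from a different outside laboratory. Whether a genotype was 1 line, and whether its 3 samples were separate cultures, is not stated. The p-values therefore measure the spread between these samples, and genotype, line and p53 status cannot be told apart. Embryo age was not given.

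SLRPs are secreted proteins whose curved leucine-rich repeats bind collagen fibrils and set fibril diameter and spacing. Most carry chondroitin, dermatan or keratan sulfate chains, and several bind TGF-beta, growth factor receptors or Toll-like receptors. They are abundant in tendon, cartilage, bone, skin and cornea, and fibroblasts are a main source of decorin and biglycan.

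Samples held 32187040 to 33837949 counted reads, so that a count of 3, taken as the floor, was 0.0887 to 0.0932 CPM, that is, reads scaled to a common library total. WT replicate 2 stood apart. The chi-square per gene between it and the other WT samples was 14.4 and 15.6, against 5.11 to 6.66 for every other pair within a genotype. Sirt6 had 402 to 487 reads in WT and 4 to 7 in Sirt6-/- samples. Atm was higher in the samples labelled Atm-/- than in WT (104 against 50.5 normalized CPM, n = 3 each). The allele is not described, so gene counts do not check that label, and Atm-/- names the label throughout. Trp53 was at 25.9 normalized CPM in Atm-/-, 219 in WT and 279 in Sirt6-/-. Of 10 fibroblast markers, 9, 9 and 8 had a mean over 1 CPM in WT, Atm-/- and Sirt6-/-, with Fap at 0 reads in every WT sample and Thy1 at 1 to 33 reads in Sirt6-/-. The summed level of epithelial markers was 20.7 to 25.4 CPM in WT, 43.9 to 48.5 in Atm-/- and 15.4 to 19.9 in Sirt6-/-. That of endothelial markers was 3.11 to 5.15, 9.80 to 12.5 and 0.649 to 0.990 CPM. Kdr carried the endothelial differences, with 86 to 135 reads in WT, 330 to 422 in Atm-/- and 4 to 12 in Sirt6-/-. Pecam1 and Cdh5 had at most 10 and 13 reads in any sample, and Tek had 0 in each Atm-/- sample. Krt18 made up most of the epithelial rise in Atm-/-, with 891 to 1044 reads against 198 to 268 in WT. Cdh1 was higher there too, while Krt8, Krt14 and Epcam overlapped with WT and Krt5 stayed at a few reads. Macrophage markers summed to at most 11.8 and muscle markers to at most 1.81 CPM in any sample. Myog had 0 reads in every sample, and Myod1 had 0 in every WT and Sirt6-/- sample. The higher sums of cartilage, tendon and bone markers are given with the genes below.

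Per length of transcript, Bgn (biglycan) was the most abundant SLRP transcript in all 3 genotypes and Dcn (decorin) the next. Levels between genes are given here as deposited RPKM, in which reads are scaled by transcript length and sequencing depth. In WT, Bgn had 1107 ± 22.6 RPKM and Dcn 302 ± 62.4 RPKM (SD, n = 3), followed by Fmod at 36.4 ± 9.79 and Ogn at 7.47 ± 2.30 RPKM. Below these, Aspn, Omd, Podn, Prelp and Lum had means of 0.230, 0.166, 0.133, 0.110 and 0.0957 RPKM, and neighbours in this order differed by less than their spread. Kera had 0 reads in each WT sample. The order was different in Sirt6-/-: Bgn at 1072 ± 22.6, Dcn at 438 ± 45.8, Ogn at 147 ± 11.8, Aspn at 84.0 ± 5.30, Omd at 8.38 ± 0.476, Prelp at 2.18 ± 0.494 and Podn at 1.21 ± 0.217 RPKM. Fmod was at 0.275 ± 0.0646 RPKM there, with Lum at 0.103 and Kera at 0.0926 RPKM. In Atm-/-, Bgn had 374 ± 9.44, Dcn 61.1 ± 3.27 and Ogn 11.4 ± 0.232 RPKM. Omd (1.35 ± 0.148 RPKM) and Aspn (1.18 ± 0.267 RPKM) did not differ beyond their spread, and the means of Fmod, Prelp and Podn lay between 0.0910 and 0.106 RPKM. Ranked among all genes, Bgn stood at place 34 in WT, 160 in Atm-/- and 44 in Sirt6-/-, while Ogn moved from place 7175 in WT to 467 in Sirt6-/- and Aspn from 12023 to 892.

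**Figure D1:**
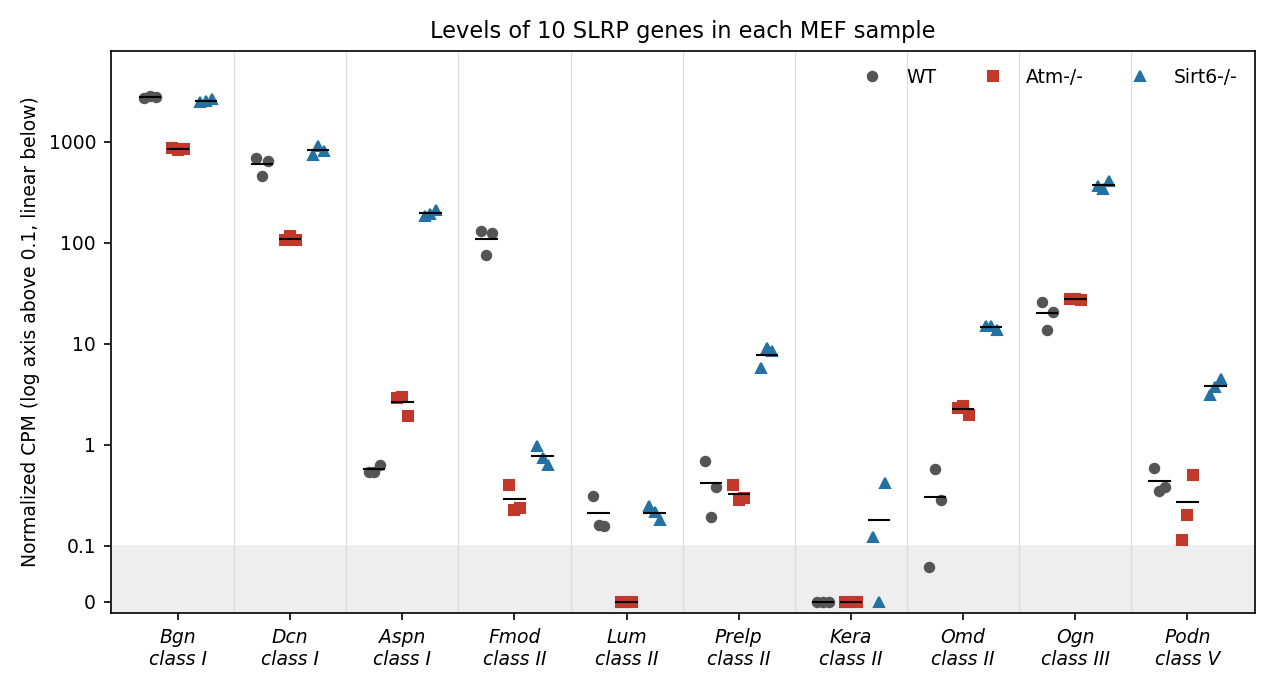
Normalized CPM (y axis, logarithmic above 0.1 and linear in the grey band below) of the 10 SLRP genes in each of 9 samples, with WT as circles, Atm-/- as squares and Sirt6-/- as triangles; black lines are means of 3 samples. Fmod lies between 76.3 and 130 in WT and at most at 0.982 elsewhere, while Aspn lies between 185 and 211 in Sirt6-/- and far lower elsewhere.

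The summed level of the SLRPs was lower in Atm-/- and its make-up differed in all 3 genotypes. The 10 genes summed to 1390 to 1486 RPKM in WT, 444 to 457 in Atm-/- and 1690 to 1787 in Sirt6-/- samples. The mean was thus 0.309 times that of WT in Atm-/- and 1.21 times in Sirt6-/-, and the samples of the 3 genotypes did not overlap. In bulk samples, fewer cells of a type and less RNA per cell cannot be told apart. Bgn gave 76.3 ± 4.32% of the sum in WT, 83.2 ± 0.964% in Atm-/- and 61.2 ± 1.36% in Sirt6-/- (SD, n = 3). Dcn gave 20.7 ± 3.59%, 13.6 ± 0.881% and 24.9 ± 2.09%. Fmod gave 2.49 ± 0.592% in WT but 0.0236% in Atm-/- and 0.0158% in Sirt6-/-. Aspn, Omd and Ogn together gave 0.402 to 0.667% in WT, 2.96 to 3.21% in Atm-/- and 12.7 to 14.4% in Sirt6-/- samples.

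**Figure D2:**
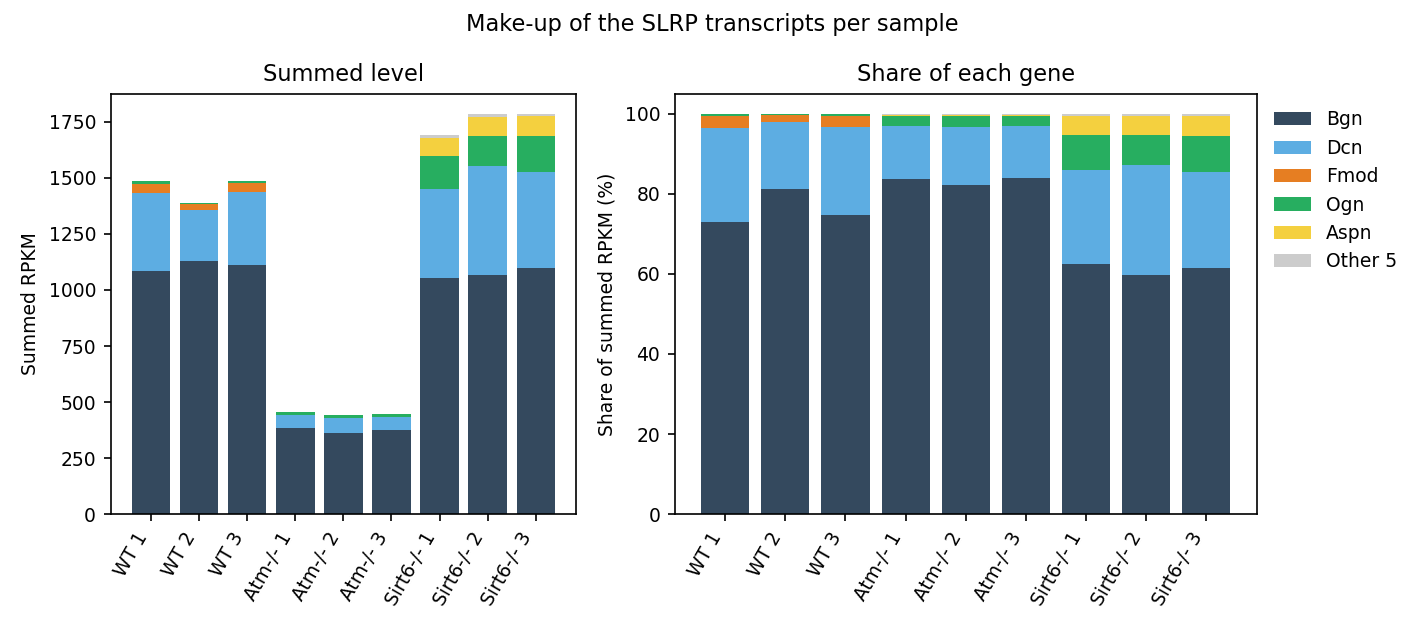
Stacked bars of the SLRP genes in each of the 9 samples, as summed RPKM on the left and as percent of that sum on the right; Prelp, Omd, Lum, Kera and Podn are shown together as the other 5. The Atm-/- bars reach 444 to 457 RPKM, and Ogn and Aspn form a visible part only in Sirt6-/-, at 8.38% and 4.79% on average, apart from an Ogn share of 2.54% in Atm-/-.

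Of the 10 SLRP genes, 8 passed the filter on low counts in each comparison, and Lum and Kera did not. In Atm-/- against WT, 3 were significantly higher, against 34.7% of all tested genes, and 3 significantly lower, against 33.6% (quasi-likelihood test of edgeR, Benjamini-Hochberg adjusted over all tested genes, adjusted p under 0.05). Those 6 of 8 compare with 68.4% of all tested genes called in either direction. In Sirt6-/- against WT, 6 were higher (background 39.2%) and 2 lower (background 37.4%), with 76.6% of all genes called in either direction. In Atm-/- against Sirt6-/-, all 8 tested members were lower (background 37.8% lower and 75.8% in either direction). Some called members passed the filter only through the group where they were high, so entry favoured the call they received. Against WT these were Fmod through WT, Omd through each knockout, and Prelp through Sirt6-/-. Between the knockouts they were Fmod, Prelp and Podn, through Sirt6-/-. They are included in the counts and medians given here. Among all genes, 50.8% of the calls in Atm-/- against WT were higher, and 64.9% with library totals as the scale, which moved the median of all genes by 0.16 on the log2 scale and ended no call of an SLRP in that comparison. The median log2 fold change of the tested members was -0.54, 3.65 and -3.32 in these comparisons, beside 0.02, 0.02 and 0.00 over all genes. With a change of at least 4-fold, the counts were 2 higher (background 8.39%) and 2 lower (4.15%) in Atm-/- against WT, 5 higher (9.88%) and 1 lower (6.04%) in Sirt6-/- against WT, and 6 lower (6.03%) in Atm-/- against Sirt6-/-. The comparisons share samples, so their values are set side by side and not counted as separate evidence. Log2 fold changes below come from the same test, with Benjamini-Hochberg adjusted p and standard error (SE), and levels are normalized CPM.

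**Figure D3:**
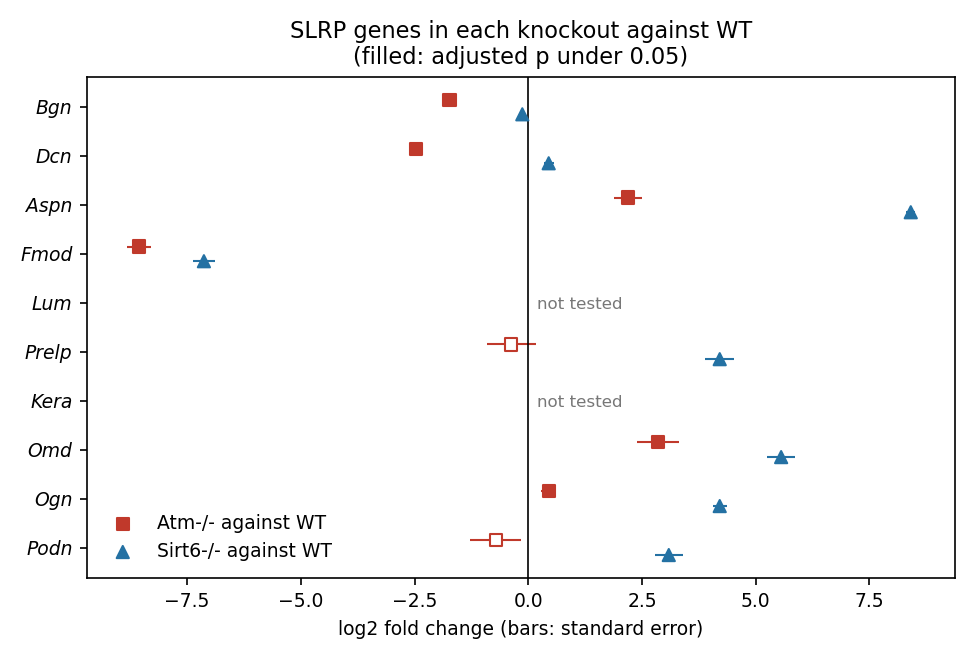
Log2 fold change (x axis) of each SLRP gene in Atm-/- (squares) and Sirt6-/- (triangles) against WT, with standard errors as bars, filled where the adjusted p was under 0.05. Fmod lies far to the left in both knockouts (-8.56 and -7.13), Dcn and Bgn stand at -2.47 and -1.73 in Atm-/- and near 0 in Sirt6-/-, and Aspn reaches 8.41 in Sirt6-/-.

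Biglycan and decorin, the class I proteoglycans that carry chondroitin or dermatan sulfate, were both lower in Atm-/-. Bgn had 2747, 2861 and 2806 normalized CPM in WT replicates 1 to 3, 871, 829 and 854 in Atm-/-, and 2500, 2537 and 2633 in Sirt6-/-. All Atm-/- samples lay far below both other groups, and the Sirt6-/- samples lay slightly below WT. The log2 fold change of Bgn was -1.73 in Atm-/- (SE 0.04, adjusted p = 4.9e-14) and -0.13 in Sirt6-/- (SE 0.04, adjusted p = 0.0085). The latter, a level 0.912 times that of WT, was lost without Sirt6-/- replicate 1 (adjusted p = 0.051) and with library totals as the scale (log2 fold change -0.04, adjusted p = 0.34). Between the knockouts, Bgn was lower in Atm-/- by 2.99-fold (-1.58, SE 0.03, adjusted p = 7.4e-20).

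Dcn had 698, 463 and 650 normalized CPM in WT, 107, 116 and 106 in Atm-/-, and 744, 917 and 810 in Sirt6-/-. Decorin transcripts were thus lowest in Atm-/- and highest in Sirt6-/-, with no overlap between groups. Against WT, they were 5.53-fold lower in Atm-/- (-2.47 on the log2 scale, SE 0.11, adjusted p = 9e-11) and 1.37-fold higher in Sirt6-/- (0.45, SE 0.11, adjusted p = 0.0024). WT replicate 2, the sample that stood apart, had 68.7% of the mean of the other WT samples, and without it the Sirt6-/- difference was 0.28 (adjusted p = 0.00033). Bgn did not share this, at 103% in the same sample. Between the knockouts, Dcn was 7.47-fold lower in Atm-/- (-2.90, SE 0.06, adjusted p = 4.4e-20). The summed level of the 10 fibroblast markers was 27677 to 30575 CPM in WT, 8997 to 9253 in Atm-/- and 19303 to 19757 in Sirt6-/- samples. It was thus lower in Atm-/-, as Bgn and Dcn were, and lower in Sirt6-/-, where Dcn was higher. The markers did not move as a unit, since Thy1 was at 82.9 to 91.3 CPM in Atm-/- against 18.9 to 29.5 in WT, and Pdgfrb at 190 to 197 CPM in Sirt6-/- against 75.4 to 79.2. Their part in the lower Bgn and Dcn of Atm-/- was not tested. Of these markers, Col1a1, Col1a2 and Col3a1 also stand among the fibril partners below.

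Fmod, which encodes fibromodulin, a keratan sulfate-bearing class II member that binds type I collagen, was nearly lost from both knockouts. It had 4159, 2386 and 3908 reads in WT, 14, 8 and 8 in Atm-/-, and 32, 24 and 21 in Sirt6-/-. In normalized CPM these were 110 ± 29.6, 0.289 ± 0.0991 and 0.784 ± 0.180 (SD, n = 3). Every knockout sample lay far below the lowest WT sample, and the Atm-/- samples lay below those of Sirt6-/-. The level was 378-fold lower in Atm-/- (log2 fold change -8.56, SE 0.27, adjusted p = 1.6e-12) and 140-fold lower in Sirt6-/- (-7.13, SE 0.24, adjusted p = 1.3e-12). Between the knockouts the difference was -1.42 (SE 0.46, adjusted p = 0.0084), and it did not pass the test without Sirt6-/- replicate 1 (-1.23, adjusted p = 0.051). WT replicate 2 held 59.9% of the mean of the other WT samples.

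Aspn, Omd and Ogn, the asporin, osteomodulin and osteoglycin genes, were higher in both knockouts than in WT, and by far more in Sirt6-/-. Asporin is a class I member that lacks the usual chain attachment site and binds TGF-beta. Osteomodulin is a keratan sulfate proteoglycan of bone, and osteoglycin, or mimecan, is a class III member that regulates fibril growth.

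Aspn had 17, 17 and 20 reads in WT, 102, 105 and 66 in Atm-/-, and 6032, 6189 and 7031 in Sirt6-/-. The groups were fully apart, with WT lowest and Sirt6-/- highest. The log2 fold change was 2.19 in Atm-/- (SE 0.31, adjusted p = 2e-05) and 8.41 in Sirt6-/- (SE 0.10, adjusted p = 3.6e-17), the latter a 341-fold difference.

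Omd had 2, 18 and 9 reads in WT, 80, 86 and 67 in Atm-/-, and 487, 492 and 459 in Sirt6-/-. WT was again lowest, at a few reads that varied widely, and Sirt6-/- highest. Its log2 fold change was 2.85 in Atm-/- (SE 0.46, adjusted p = 6.9e-05) and 5.56 in Sirt6-/- (SE 0.30, adjusted p = 2.6e-10). Without WT replicate 2, which held the 18 reads, these were 3.66 and 6.35.

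Ogn had 26.0, 13.6 and 20.7 normalized CPM in WT, 28.1, 27.6 and 27.1 in Atm-/-, and 368, 344 and 406 in Sirt6-/-. The Atm-/- samples lay just above the highest WT sample, while the Sirt6-/- samples stood far above both. The log2 fold change was 4.21 in Sirt6-/- (SE 0.15, adjusted p = 2.9e-12), or 18.5-fold, and 0.45 in Atm-/- (SE 0.16, adjusted p = 0.022). The small rise in Atm-/- did not pass the test without Atm-/- replicate 1 (0.44, adjusted p = 0.067), and was 0.23 without WT replicate 2, which held 58.5% of the mean of the other WT samples.

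Directly compared, all 3 were lower in Atm-/- than in Sirt6-/-, Aspn by 73.8-fold (log2 fold change -6.21, SE 0.09, adjusted p = 2e-22), Ogn by 13.4-fold (-3.75, SE 0.06, adjusted p = 3.7e-22) and Omd by 6.47-fold (-2.69, SE 0.14, adjusted p = 3.3e-13). Markers of skeletal tissues, where these genes are known to be expressed, differed as well. The 6 cartilage markers summed to 8.89 to 9.22 CPM in WT, 72.9 to 88.8 in Atm-/- and 267 to 319 in Sirt6-/-, with Matn1 at 0 reads in all samples. The sum was carried by Acan (48.7 to 61.9 CPM) in Atm-/- and by Col2a1 (244 to 297 CPM) in Sirt6-/-. The 3 tendon markers summed to 4.67 to 7.56, 17.1 to 20.1 and 28.7 to 32.1 CPM. Tnmd went the other way, with 14 to 70 reads in WT, 0 in each Atm-/- sample and 0 to 2 in Sirt6-/-. The 6 bone markers summed to 60.7 to 76.5 CPM in WT, 79.8 to 82.8 in Atm-/- and 32.1 to 34.9 in Sirt6-/-, with Ibsp at 0 throughout. Runx2 made up most of this sum, at 56.9 to 71.2, 73.0 to 79.3 and 31.7 to 34.7 CPM. Alpl had 82 to 152 reads in WT, 114 to 258 in Atm-/- and 0 to 2 in Sirt6-/-. Dmp1 had 0 reads in WT and Bglap 0 in Sirt6-/-, and both, like Sp7, were at most at 0.340 CPM in any sample. The part of these marker lists in the rise of Aspn, Omd and Ogn was not tested.

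The 3 genes lie side by side on the plus strand of chromosome 13, in the order Ecm2, Aspn, Omd and Ogn, with gaps of 11.7, 14.9 and 15.4 kb. In the RefSeq annotation of GRCm38, Aspn spans chr13:49544443-49567565, Omd chr13:49582462-49592612 and Ogn chr13:49608015-49624501. All 4 lie inside Cenpp (chr13:49464025-49652950), a centromere protein gene on the minus strand. Of the exon bases of Aspn in GENCODE M21, 7 overlap an exon of Cenpp, and the library protocol does not describe strand marking. The 250 bases before each RefSeq start (GRCm38.p6, plus strand) are shown because the 3 neighbours rose together; capitals mark matches to TATAAA or CCAAT on either strand.
Aspn promoter (chr13:49544193-49544442): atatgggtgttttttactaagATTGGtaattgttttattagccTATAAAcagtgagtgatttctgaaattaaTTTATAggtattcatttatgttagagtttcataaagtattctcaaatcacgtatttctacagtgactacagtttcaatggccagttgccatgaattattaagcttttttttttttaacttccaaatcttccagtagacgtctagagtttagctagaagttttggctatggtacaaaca
Omd promoter (chr13:49582212-49582461): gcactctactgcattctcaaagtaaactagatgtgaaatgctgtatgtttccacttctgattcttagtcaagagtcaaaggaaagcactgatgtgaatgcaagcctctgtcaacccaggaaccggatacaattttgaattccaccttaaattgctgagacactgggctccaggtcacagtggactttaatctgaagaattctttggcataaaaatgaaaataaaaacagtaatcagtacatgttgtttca
Ogn promoter (chr13:49607765-49608014): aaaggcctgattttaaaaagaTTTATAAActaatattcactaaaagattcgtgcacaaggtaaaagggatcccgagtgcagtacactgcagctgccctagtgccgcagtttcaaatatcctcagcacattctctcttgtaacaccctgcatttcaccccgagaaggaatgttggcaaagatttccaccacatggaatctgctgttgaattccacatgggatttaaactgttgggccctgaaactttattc

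These windows were poor in G and C. The GC content was 30% for Aspn, 38.4% for Omd and 42% for Ogn, at percentiles 1.47, 9.05 and 15.9 of 32851 promoters of the same length, whose median was 52.4%. TATAAA was found in the Aspn window 207 and 178 bases before the start, and in the Ogn window at 229 and 227 bases, where the matches overlap on opposite strands. It occurs in 12.4% of all promoters. CCAAT, present in 33.8%, was found once in these windows, 229 bases before the start of Aspn. The Omd window held neither motif, and none of the 3 held GGGCGG (32.7% of promoters) or TGANTCA (6.75%). A match describes the letters and is not a measured binding site.

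**Figure D4:**
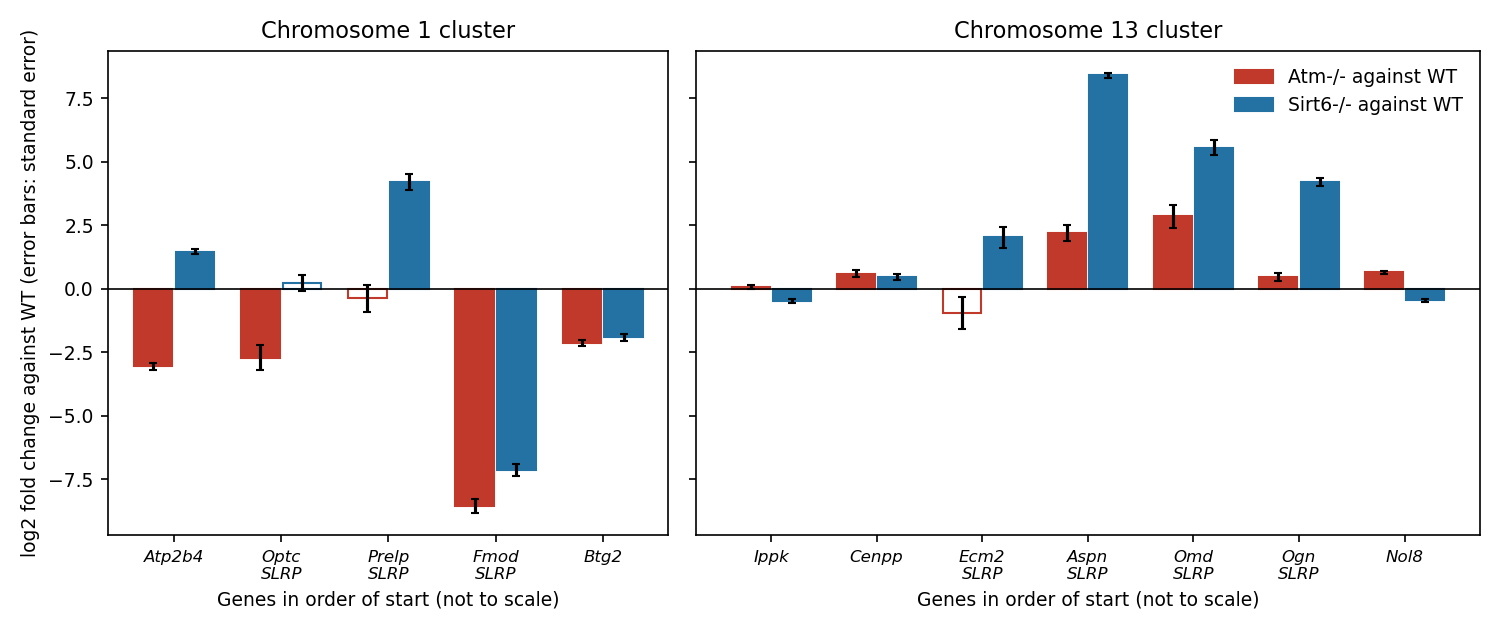
Log2 fold change against WT (y axis, error bars are standard errors) of genes in order of start around the chromosome 1 and chromosome 13 SLRP genes, in Atm-/- (red) and Sirt6-/- (blue); open bars did not pass the test. In Sirt6-/-, Ecm2, Aspn, Omd and Ogn stand between 2.03 and 8.41 while the flanking Ippk and Nol8 lie at -0.48 and -0.46.

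In Sirt6-/-, the flanking genes on chromosome 13 and Cenpp moved far less than the SLRP genes of the row. Ippk, an inositol phosphate kinase gene before Ecm2, had log2 fold changes of 0.07 in Atm-/- (adjusted p = 0.48) and -0.48 in Sirt6-/- (adjusted p = 0.00011). Nol8, a nucleolar protein gene after Ogn, had 0.66 and -0.46 (adjusted p = 1.8e-07 and 2.3e-05), and Cenpp 0.60 and 0.47 (adjusted p = 0.00071 and 0.0039). In Atm-/-, Nol8 and Cenpp thus rose no less than Ogn (0.45, SE 0.16). The other SLRP gene of the row, Ecm2, rose in Sirt6-/- by 2.03 (SE 0.42, adjusted p = 0.00046), from 8, 26 and 11 reads in WT to 53, 58 and 82, and by 2.68 without WT replicate 2. In Atm-/- Ecm2 had 11, 2 and 12 reads and was at -0.97 (SE 0.63, adjusted p = 0.19), or -0.31 without WT replicate 2 (adjusted p = 0.72).

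Prelp and Fmod lie near each other on chromosome 1, Prelp on the minus strand (chr1:133910304-133930102) and Fmod on the plus strand (chr1:134037254-134048280), 107 kb apart. They moved in opposite directions in Sirt6-/-. Prelp encodes prolargin, a class II member with a basic heparin-binding end that anchors basement membranes to collagen. It had 22, 6 and 12 reads in WT, 14, 10 and 10 in Atm-/-, and 189, 297 and 286 in Sirt6-/-. WT and Atm-/- overlapped at a few reads, and all Sirt6-/- samples lay above them. The log2 fold change was 4.21 in Sirt6-/- (SE 0.32, adjusted p = 1.9e-08) and -0.37 in Atm-/- (SE 0.53, adjusted p = 0.56), where the 95% interval ran from -1.50 to 0.76. Without WT replicate 1 the Atm-/- value was 0.19 (adjusted p = 0.81). Directly compared, Prelp was 23.5-fold lower in Atm-/- than in Sirt6-/- (-4.56, SE 0.27, adjusted p = 2.5e-12). Prelp shares 350 exon bases with the antisense gene Gm15851, whose reads cannot be told apart without strand. The windows of this pair are shown for comparison, from the RefSeq start given for each, with capitals as above. The Prelp window lies inside the span given above, so its start is not the outer end of that span.
Fmod promoter (chr1:134037004-134037253, plus strand): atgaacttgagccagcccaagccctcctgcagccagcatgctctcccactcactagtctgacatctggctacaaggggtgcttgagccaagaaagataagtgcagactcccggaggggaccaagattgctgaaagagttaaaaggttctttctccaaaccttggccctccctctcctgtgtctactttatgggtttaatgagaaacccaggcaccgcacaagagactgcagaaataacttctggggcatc
Prelp promoter (chr1:133921402-133921651, minus strand): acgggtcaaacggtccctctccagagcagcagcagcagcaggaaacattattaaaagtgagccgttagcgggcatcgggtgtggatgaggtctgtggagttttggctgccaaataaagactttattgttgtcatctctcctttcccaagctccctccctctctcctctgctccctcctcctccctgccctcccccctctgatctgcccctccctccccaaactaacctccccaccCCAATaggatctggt

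The GC content was 51.2% for Fmod and 55.6% for Prelp, both near the median of all promoters. CCAAT was found in the Prelp window, 15 bases before the RefSeq start used there, and none of the 4 motifs in that of Fmod. Next to Prelp, at 615 bases, lies Optc, the class III opticin gene of the eye. Optc was lower in Atm-/- (3, 9 and 12 reads against 70, 38 and 37 in WT, log2 fold change -2.71, SE 0.48, adjusted p = 0.00016). In Sirt6-/- it had 66, 50 and 61 reads and a log2 fold change of 0.24 (SE 0.32, adjusted p = 0.51). The flanking calcium pump gene Atp2b4 was at -3.06 in Atm-/- and 1.46 in Sirt6-/- (adjusted p = 1.5e-10 and 6.4e-09). On the Fmod side, the antiproliferative gene Btg2 was at -2.13 and -1.91 (adjusted p = 2.5e-09 and 5.8e-09).

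Podn, which encodes podocan, a class V member on chromosome 4 (chr4:108014793-108031954, minus strand), had 19, 11 and 12 reads in WT, 4, 7 and 17 in Atm-/-, and 102, 121 and 151 in Sirt6-/-. Sirt6-/- samples lay above all others, and WT and Atm-/- overlapped. The log2 fold change was 3.09 in Sirt6-/- (SE 0.31, adjusted p = 3.6e-07) and -0.71 in Atm-/- (SE 0.56, adjusted p = 0.28, 95% interval -1.92 to 0.50), or -1.47 without Atm-/- replicate 3 (adjusted p = 0.065). Between the knockouts, Podn was at -3.79 (SE 0.37, adjusted p = 9.4e-09), and at -4.55 without Atm-/- replicate 3. Of the neighbours of Podn, Slc1a7 had too few reads to be tested, and Scp2, a sterol carrier gene, rose in Sirt6-/- by 1.10 (adjusted p = 1.5e-10) and was at 0.11 in Atm-/- (adjusted p = 0.13).

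Dcn, Lum and Kera stand in a row on the plus strand of chromosome 10 (chr10:97479500-97518163, chr10:97565501-97572703 and chr10:97606962-97613688) and differed widely in level. Lum encodes lumican and Kera keratocan, the keratan sulfate proteoglycans of the cornea. Lum had 10, 5 and 5 reads in WT, 0 in each Atm-/- sample, and 8, 7 and 6 in Sirt6-/-. Kera had 0 reads in all WT and Atm-/- samples and 4, 0 and 14 in Sirt6-/-. Both were too low to be tested, and a count of 0 allows a level of up to 0.0887 to 0.0932 CPM, by counting error only. Epyc, the next SLRP gene of the row, had 0 to 4 reads in any sample. On the X chromosome, the genes beside Bgn (chrX:73483601-73495936, plus strand) were Haus7, at -0.55 and -0.45 in Atm-/- and Sirt6-/- (adjusted p = 2e-05 and 0.00012), and Atp2b3, which was not tested.

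The SLRP genes outside the 10 moved in either direction in Atm-/-. Of 8 listed for comparison, 6 were tested, and 1 was higher and 2 were lower in Atm-/-. In Sirt6-/-, 3 were higher and the other 3 did not pass the test. Chadl in both knockouts, Ecm2 in Sirt6-/- and Optc in Atm-/- passed the filter only through the group where they were high. Of all tested genes, 34.7% were higher and 33.6% lower in Atm-/-, and 39.2% and 37.4% in Sirt6-/-. Chadl, the chondroadherin-like gene, rose in Atm-/- (log2 fold change 1.69, adjusted p = 0.0018) and in Sirt6-/- (2.15, adjusted p = 8.8e-05). Podnl1, a podocan relative, rose in Sirt6-/- (log2 fold change 1.60, adjusted p = 8.2e-07) and was at 0.24 in Atm-/- (adjusted p = 0.29). Tsku, the tsukushi gene of a secreted signalling inhibitor, fell in Atm-/- by 0.41 on the log2 scale (adjusted p = 0.00048). Chad, the cartilage protein chondroadherin, was at 1.09 in Atm-/- and 0.69 in Sirt6-/- (adjusted p = 0.17 and 0.38). Nyx had 0 to 7 reads.

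The enzymes that build the sugar chains of SLRPs are set against the shares of all tested genes, 34.7% higher and 33.6% lower in Atm-/- and 39.2% and 37.4% in Sirt6-/-. Of 6 genes for the linker to the core protein, 2 were higher and 1 lower in Atm-/-, and 4 were higher in Sirt6-/- with the other 2 not passing the test. There, Xylt2, a starter xylosyltransferase, was at 0.71 and B3gat3, which adds the last linker sugar, at 0.77. Of 15 tested genes for chondroitin and dermatan sulfate in Atm-/-, 8 were higher and 5 lower, and of 14 in Sirt6-/-, 11 and 3. Csgalnact1, which starts chondroitin chains, rose by 3.81 in Atm-/- and 3.44 in Sirt6-/-. Chst12, a chondroitin 4-sulfotransferase, fell in both knockouts, at -1.12 in Atm-/- and -0.72 in Sirt6-/-, and Dse, the epimerase that makes dermatan, was at -0.76 in Atm-/- and 0.38 in Sirt6-/-. Of 9 tested genes for keratan sulfate and tyrosine sulfate, 3 were higher and 5 lower in Atm-/-, and 2 and 5 in Sirt6-/-. B4galt4, a keratan sulfate galactosyltransferase, was at -1.69 and -2.12, and Tpst2, a tyrosylprotein sulfotransferase, at -0.46 and -1.52, in Atm-/- and Sirt6-/-. Chst1, the keratan sulfate galactose sulfotransferase, rose by 2.14 in Atm-/-.

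The collagens and the crosslinking enzyme that SLRPs meet on the fibril were mostly lower in Atm-/-. Of 13 tested fibril partners, 9 were lower and 2 higher, beside 33.6% and 34.7% of all tested genes, with a median log2 fold change of -1.88 beside 0.02. In Sirt6-/-, 5 were lower and 8 higher, beside 37.4% and 39.2% of all genes, with a median of 0.72. Between the knockouts, 12 of 12 tested were lower in Atm-/-, beside 37.8% of all genes. Col1a1, a main chain of type I collagen, fell in both, at -2.57 in Atm-/- and -1.87 in Sirt6-/-, as did Col3a1, at -4.36 and -0.95. The partner chain Col1a2 was at -2.43 in Atm-/- but at 0.72 in Sirt6-/-. Col6a3, of the beaded filaments that biglycan and decorin bind, rose by 4.52 and 5.94, and Col11a1 by 2.46 and 4.35, in Atm-/- and Sirt6-/-. The other tested chains of those filaments, Col6a1 and Col6a2, were lower in Atm-/- (-1.37 and -1.88) and higher in Sirt6-/- (1.01 and 0.57). Col2a1, the cartilage collagen, rose by 9.33 in Sirt6-/-. WT replicate 2 had 64.2% of the Col3a1 level of the other WT samples, near its share of Fmod and Dcn.

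Of 13 tested receptors and ligands bound by SLRPs, 5 were higher and 6 lower in Atm-/-, and 7 and 3 in Sirt6-/-. Tlr2, the innate receptor of biglycan, rose by 4.57 in Sirt6-/-. Met, a receptor bound by decorin, fell in both, at -0.86 in Atm-/- and -2.68 in Sirt6-/-, as did Tgfb2, a ligand that SLRPs bind, at -2.19 and -1.79. Lrp1, an endocytic receptor of decorin, rose by 0.40 and 1.63. Of 10 proteases known to cleave SLRPs, 5 were higher and 5 lower in Atm-/-, and 4 and 4 in Sirt6-/-. Mmp3 and Mmp13 rose by 5.16 and 4.44 in Atm-/-, Mmp2 rose by 0.42 in Atm-/- and 2.59 in Sirt6-/-, while Adamts5, an aggrecanase, fell in both, at -4.53 in Atm-/- and -1.45 in Sirt6-/-. Over these lists and the other SLRPs together, 26 of 72 tested genes were higher and 33 lower in Atm-/-, and 39 of 71 were higher and 20 lower in Sirt6-/-. Some of the genes counted, such as Col2a1 in Sirt6-/-, passed the filter only through the group where they were high. Each of these counts is to be read against all tested genes, 34.7% higher and 33.6% lower in Atm-/-, and 39.2% and 37.4% in Sirt6-/-.

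**Figure D5:**
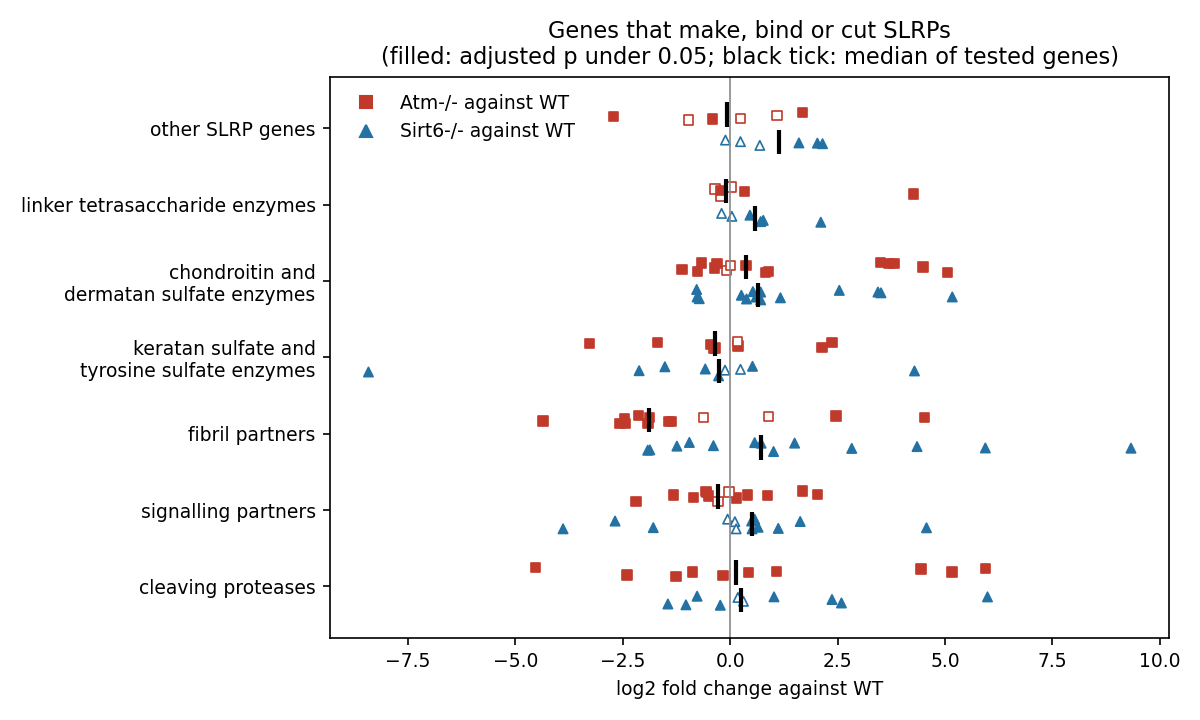
Log2 fold change against WT (x axis) of every tested gene in 7 lists of SLRP-related genes, in Atm-/- (red squares) and Sirt6-/- (blue triangles), filled where the adjusted p was under 0.05, with black ticks at the medians. The fibril partners have medians of -1.88 and 0.72, the widest split of the 7 lists.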

How the data were processed

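The data were RNA-Seq of 9 MEF samples, 3 per genotype. The sample labels describe oligo(dT) enrichment of mRNA and random hexamer priming, and do not mention strand marking. The authors deposited, for each sample, a whole-number read count per gene without normalization, the RPKM made from it, and a transcript length. The submitters' processing notes name the genome build mm10, and the aligner and counter are not given in the sources used here. Samples held 32187040 to 33837949 counted reads.

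Each pair of genotypes was fitted in edgeR 4.0.16 (R 4.3.3) over all genes with filterByExpr, TMM normalization and the quasi-likelihood test with a prior count of 0.125, and called at a Benjamini-Hochberg adjusted p under 0.05. SE values were derived from the F statistic, and intervals from the t distribution with the test's degrees of freedom. Normalized CPM used TMM factors over the 9 samples, and RPKM served for levels between genes. The script was tested on simulated counts. The alternatives were DESeq2 1.42.0 size factors and Wald test, library totals, no filter, at least 10 counts in every sample, all 9 samples in 1 fit, a prior count of 2, the replicate number as a block and each sample left out in turn. RPKM divided by TMM factors was added after seeing the data. Intervals and floors cover counting error or sample spread only.

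The members and the gene lists were chosen with earlier results of these data known. Named were the 10 members, Atm, Sirt6 and Trp53, all other SLRP genes, the nearest protein-coding genes around each locus, defining markers at 0, and of each list at most the 3 largest rises and falls among called genes, if their mean log2 CPM reached 3. Thy1, Pdgfrb, Sox9, Acan, Comp, Matn3, Col2a1 as a marker and the Tnmd reads were named after their values were seen. The same holds for Runx2, Alpl, Sp7, Krt18, Krt8, Cdh1, Krt14, Epcam, Krt5, Kdr, Pecam1 and Cdh5. So were Col1a2, Col6a1, Col6a2 and the Sirt6-/- values of Dse and Csgalnact1. Gene positions are from RefSeq on GRCm38, and strands and exon overlaps from GENCODE M21. Promoters are from RefSeq GRCm38.p6, where those of 8 of the 10 members were matched. Amino acid sequences were not used here.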

Additional observations from a re-analysis of the deposited data

How the results depend on the processing

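No called value changed direction under the alternatives run. Members called higher or lower against WT were within 1.5 times the reported counts under the alternatives, except that 1 member in place of 2 was lower in Sirt6-/- with library totals, and 1 to 2 when samples were left out in turn, since Bgn lost its call without Sirt6-/- replicate 1. With no filter on low counts, 4 members were lower in Atm-/- and 7 higher in Sirt6-/- against WT, and requiring 10 counts in every sample gave 2 and 4. The summed RPKM of the 10 genes, taken as a ratio to WT, was 0.277 in Atm-/- and 1.132 in Sirt6-/- after division by TMM factors, an alternative chosen after seeing the data, and 0.303 to 0.313 and 1.18 to 1.228 when single samples were left out. With replicate number taken as a block, the test called 3 members higher and 3 lower in Atm-/-, 6 and 2 in Sirt6-/- against WT, and 8 lower in Atm-/- against Sirt6-/-, and it changed no call of a member. Deviations of same-numbered samples from their group means correlated at -0.0201 to 0.0307, and those of different-numbered samples at -0.033 to 0.0224. These ranges overlap, so they show no pairing by number and do not settle whether one exists. When single samples were left out, the log2 fold change of Fmod ranged from -8.87 to -8.41 in Atm-/- and from -7.35 to -6.99 in Sirt6-/-, and that of Aspn from 2.09 to 2.37 and from 8.35 to 8.49. Depth limits Lum and Kera, and the fold changes of Aspn, Omd, Prelp and Podn rest on few WT reads.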
